A study of Homo sapiens with 6 samples.

Results

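YAP1, its paralog TAZ (gene WWTR1), the TEAD transcription factors TEAD1 to TEAD4 and the TEAD cofactors VGLL1, VGLL3 and VGLL4 were followed in a pair of human cholangiocarcinoma cell lines. The members are 9 of 19775 genes that had a probe set of their own on the array, and they held 23 of 54613 probe sets. A probe set, a group of short probes on the array against 1 transcript or several, was taken when the annotation gave it exactly 1 gene symbol and that symbol was a member. HuccT1 (written HuCCT1 in the study), labelled bile duct carcinoma, and KKU-100, labelled poorly differentiated cholangiocarcinoma, each received solvent, regorafenib at 1 μM (low dose) or regorafenib at 10 μM (high dose), doses as the labels give them, which differ from those of the paper. Regorafenib is an oral inhibitor of several kinases. RNA of each line and treatment went onto 1 array, 6 in all. The labels describe all cells as stably transduced and selected with puromycin and name no construct. They give no time of exposure, for which the paper states 6 h.

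YAP1 and TAZ are coactivators without a DNA-binding domain of their own. The Hippo kinases phosphorylate both, which keeps them in the cytoplasm and marks them for degradation, and in the nucleus they act through the TEAD proteins, which bind DNA. The VGLL proteins, named after vestigial of the fruit fly, bind TEADs through a short motif, and VGLL4 competes with YAP1 for TEAD. The activity of YAP1 and TAZ is set largely by phosphorylation and location of the protein, which an array of RNA does not measure.

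The DNA motif to which TEAD proteins bind, CATTCC or GGAATG when read on the other strand, was searched in the 250 bases before the start sites of the members. The table of RefSeq promoters used here (GRCh38.p14) held 13 such windows for 7 members, and TEAD1 and TEAD4 were not analysed. The motif was present in 2 of the 13, those of YAP1 and VGLL1, and in 11.9% of all 35116 windows of the same length. Both are shown with the motif in capitals, beside the more GC-rich of the WWTR1 windows, because YAP1 and WWTR1 lay on opposite sides between the lines and VGLL1 had the widest difference between them. The window of YAP1 is chr11:102110197-102110446 (plus strand), that of WWTR1 chr3:149658026-149658275 (minus strand) and that of VGLL1 chrX:136531965-136532214 (plus strand), each written 5′ to 3′ along the gene.
YAP1: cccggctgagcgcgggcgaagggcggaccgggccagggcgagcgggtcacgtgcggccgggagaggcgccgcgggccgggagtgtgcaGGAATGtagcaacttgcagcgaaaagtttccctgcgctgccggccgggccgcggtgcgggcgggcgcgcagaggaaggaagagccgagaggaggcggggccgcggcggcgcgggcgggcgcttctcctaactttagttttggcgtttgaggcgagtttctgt
WWTR1: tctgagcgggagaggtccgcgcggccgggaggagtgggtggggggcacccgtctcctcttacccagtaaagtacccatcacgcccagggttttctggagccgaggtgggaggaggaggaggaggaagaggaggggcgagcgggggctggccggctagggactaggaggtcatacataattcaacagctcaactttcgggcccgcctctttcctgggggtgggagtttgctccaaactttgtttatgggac
VGLL1: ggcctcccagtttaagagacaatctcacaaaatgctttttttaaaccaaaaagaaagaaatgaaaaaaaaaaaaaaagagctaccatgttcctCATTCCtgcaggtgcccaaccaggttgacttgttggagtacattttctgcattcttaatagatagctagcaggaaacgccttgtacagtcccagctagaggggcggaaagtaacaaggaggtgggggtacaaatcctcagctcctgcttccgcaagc
The YAP1 window had a GC content of 72.0% and 36 CpG sites, that of WWTR1 62.0% and 13, and that of VGLL1 43.6% and 3, against medians of 58.0% and 11 over all windows. The motif began 162 bases before the start site in YAP1 and 157 bases before it in VGLL1. A match of letters is no evidence of binding.

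The deposited values are linear signal intensities, whose array medians lay between 28.8 and 29.3. A probe set was counted as past the level filter in a line when its mean log2 signal over the 3 arrays reached the median of all probe sets, which 20 member probe sets did in HuccT1 and 19 in KKU-100. The files give no detection calls. The epithelial keratins KRT8 and KRT18 had signals of at least 4534 on all arrays. KRT7, KRT19 and EPCAM, markers of bile duct epithelium, were at 7654 to 11038, or 6432 to 6682 for EPCAM, in HuccT1. In KKU-100, KRT7 lay between 917 and 1227, but KRT19 between 8.62 and 11.05 and EPCAM between 8.95 and 10.96 over the 3 arrays. On the solvent array these were at percentiles 19.5 and 23.8, so that both defining markers were below the level filter in that line. SOX9, a factor of the biliary lineage, read 1408, 687 and 644 in HuccT1 with solvent, low and high dose (log2 fold changes of −1.03 and −1.13) against 921, 1059 and 546 in KKU-100 (0.20 and −0.75). Its part in the dose results was not tested. Markers of fibroblasts, endothelium, leukocytes and hepatocytes did not exceed a signal of 197 on any array, and the fibroblast marker LUM read 24.5, 83.2 and 45.6 in HuccT1.

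YAP1 was higher in HuccT1 and WWTR1 was higher in KKU-100. In RNA of whole cultures, fewer cells that express a gene and less of its RNA per cell cannot be told apart. The YAP1 probe set with the highest signal (224894_at) read 2165, 2023 and 1542 in HuccT1 with solvent, low and high dose, and 1118, 1205 and 1121 in KKU-100. Probe set 224895_at read 1256, 1046 and 924 in HuccT1 against 626, 599 and 523 in KKU-100. Probe set 213342_at read 888, 680 and 639 in HuccT1 against 449, 325 and 314 in KKU-100. For each of the 3 probe sets the lowest HuccT1 array lay above the highest KKU-100 array.

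For WWTR1, probe set 202133_at read 1081, 803 and 717 in HuccT1 against 2018, 1793 and 1519 in KKU-100. Probe set 202132_at read 205, 142 and 139 in HuccT1 against 362, 309 and 224 in KKU-100. The order of the lines is thus turned against YAP1, with no overlap for these probe sets. Probe set 202134_s_at read 249, 158 and 179 in HuccT1 against 445, 218 and 219 in KKU-100, where the treated KKU-100 arrays lay below the HuccT1 solvent array.

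**Figure D1:**
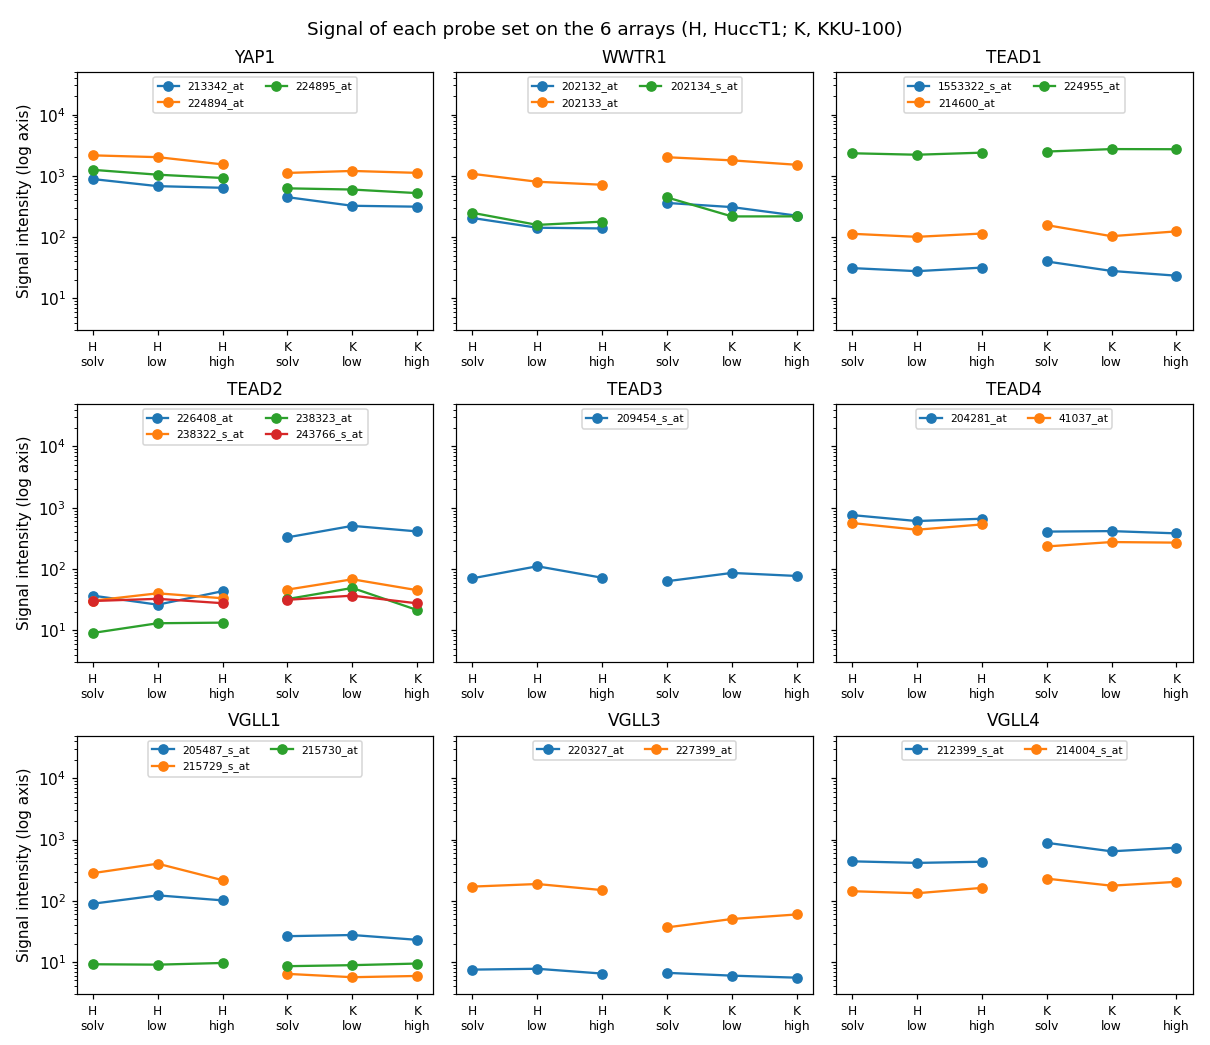
Signal intensity (log axis) of every member probe set on the 6 arrays, by gene; H is HuccT1 and K is KKU-100, each with solvent, low and high dose, and lines join the 3 arrays of a line. YAP1 lies higher in HuccT1, WWTR1 in KKU-100, TEAD2 226408_at is at most 43.4 in HuccT1 and at least 328 in KKU-100, and VGLL1 215729_s_at is at least 217 in HuccT1 and at most 6.40 in KKU-100.

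Among the TEAD genes, TEAD2 was higher in KKU-100 and TEAD4 in HuccT1. The TEAD2 probe set 226408_at read 36.7, 26.1 and 43.4 in HuccT1 against 328, 506 and 411 in KKU-100. All 3 KKU-100 arrays exceeded all HuccT1 arrays, where the signal was close to the array median. The other 3 TEAD2 probe sets were dimmer, between 9.01 and 67.8 over all arrays, and 243766_s_at overlapped between the lines (27.6 to 32.5 in HuccT1, 27.4 to 36.7 in KKU-100). TEAD4 read 759, 606 and 661 in HuccT1 against 408, 415 and 381 in KKU-100 with 204281_at, and 563, 437 and 533 against 233, 275 and 269 with 41037_at, again without overlap. TEAD1 was read at similar signals in both lines, 2217 to 2396 in HuccT1 and 2498 to 2741 in KKU-100 with its brightest probe set 224955_at. TEAD3 had a single probe set, which read 70.4, 111 and 71.8 in HuccT1 against 63.1, 86.2 and 76.9 in KKU-100, with overlap of the lines.

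Of the VGLL genes, VGLL1 and VGLL3 were higher in HuccT1 and VGLL4 in KKU-100. VGLL1 read 283, 404 and 217 in HuccT1 against 6.40, 5.65 and 5.92 in KKU-100 with 215729_s_at, and 89.6, 123 and 102 against 26.4, 27.6 and 23.03 with 205487_s_at. The KKU-100 signals of the first lay at percentile 7.17 of the solvent array, so its fold is set in part by how low signals are scaled. The third VGLL1 probe set, 215730_at, stayed between 8.55 and 9.65 on all arrays with overlap between the lines. VGLL3 read 171, 188 and 149 in HuccT1 against 36.8, 50.4 and 59.9 in KKU-100 with 227399_at, whereas 220327_at stayed between 5.55 and 7.76. VGLL4, the TEAD cofactor that competes with YAP1, read 441, 416 and 434 in HuccT1 against 885, 643 and 737 in KKU-100 with 212399_s_at, and 143, 133 and 162 against 230.0, 177 and 204 with 214004_s_at. Neither VGLL4 probe set overlapped between the lines.

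The difference between the lines at matched treatment was tested with limma over all probe sets past the level filter on the 6 arrays, with treatment as a block, so that the 3 treatments stand in for replicates and the p-values measure the spread between these arrays only. Of 20 member probe sets tested, 7 were higher and 8 lower in KKU-100 at an adjusted p under 0.05, and 15 did not overlap between the lines. Over all 27307 probe sets, 26.1% were higher and 25.0% lower, 51.1% in either direction, and 57.3% did not overlap. Before adjustment, p was under 0.05 for 8 higher and 8 lower member probe sets, against 29.4% and 27.9% of all. Both VGLL1 probe sets were below the level filter in KKU-100 and entered through their HuccT1 signal, so they had to differ and are given without a p-value. A restriction to probe sets past the level filter in both lines, chosen after seeing the data, left 18 of the members, with 7 higher, 6 lower and 13 without overlap. Of all 25203 such probe sets, 24.7% were higher, 23.4% lower and 54.6% without overlap. The median size of the difference was 0.73 on the log2 scale over these 18 and 0.41 over all. TEAD2 226408_at had the widest difference among them (KKU-100 minus HuccT1), at 3.56 (standard error 0.25, limma adjusted p = 0.000281). For VGLL1 the fitted values were −5.61 (215729_s_at) and −2.02 (205487_s_at), and with signals under the 20th percentile set to it, the former was at −4.93. VGLL3 227399_at was at −1.81 (standard error 0.20, limma adjusted p = 0.0012).

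The coactivators differed by less and in opposite directions. YAP1 was at −0.72 (224894_at), −0.88 (224895_at) and −1.02 (213342_at), with limma adjusted p-values of 0.00478, 0.00159 and 0.00111. WWTR1 was at 1.05 (202133_at), 0.88 (202132_at) and 0.53 (202134_s_at), with limma adjusted p-values of 0.000673, 0.00507 and 0.0373. TEAD4 was at −0.75 and −0.98 (limma adjusted p = 0.00541 and 0.00461), and VGLL4 at 0.80 and 0.47 (limma adjusted p = 0.00421 and 0.0363) for 212399_s_at and 214004_s_at. TEAD2 238322_s_at passed with 0.60 (limma adjusted p = 0.0101), while 243766_s_at, with 0.08, did not. The 3 TEAD1 probe sets, between −0.02 and 0.21, and TEAD3, at −0.14, did not pass. The calls of WWTR1 202134_s_at and VGLL4 214004_s_at were lost when any 1 of the 6 arrays was left out (limma adjusted p from 0.0636 to 0.143), that of VGLL4 214004_s_at also without a level filter (0.0524), and that of TEAD2 238322_s_at without the low-dose array of HuccT1 or of KKU-100 (0.0736 and 0.0683). TEAD1 224955_at, at 0.20, was called without either solvent array (limma adjusted p = 0.0364 and 0.0369) and after quantile normalization (0.0495). Leaving out either array of a treatment gives the same line difference (0.25 for TEAD1 224955_at without either solvent array), so these are not separate checks. A t-test paired over the treatments kept 5 of the 15 calls, those of WWTR1 202133_at, YAP1 213342_at and 224895_at and both VGLL1 probe sets. The VGLL1 probe sets entered through their HuccT1 signal and had to differ, so that their calls carry no weight here. The same t-test lost 10 calls (adjusted p from 0.0531 to 0.157), and it called 8.62% of all probe sets higher and 8.55% lower.

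**Figure D2:**
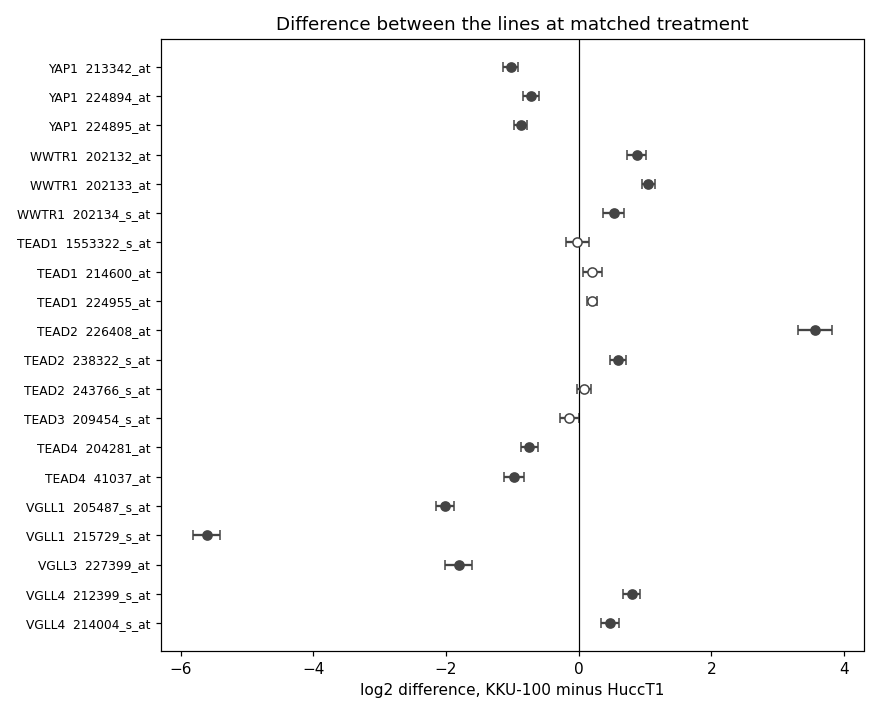
Log2 difference between the lines, KKU-100 minus HuccT1, for the 20 member probe sets past the level filter, with 3 arrays per line; points are limma estimates, bars 1 standard error, and filled points have an adjusted p under 0.05. VGLL1 was below the level filter in KKU-100. YAP1, TEAD4, VGLL1 and VGLL3 lie left of 0, and WWTR1, TEAD2 and VGLL4 lie right of it.

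Whether regorafenib changes the RNA of the factor itself is the question of the dose comparisons. Each dose was set against the solvent array of its line, without a p-value since each condition had 1 array, and a probe set counted as past the cutoff at 1.5-fold, the cutoff of the study. Since the 2 doses were set against the same solvent array, a gene that moves at both has not been measured again independently.

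WWTR1 was below solvent in 12 of 12 probe set values (3 probe sets, 2 lines and 2 doses). Its log2 fold changes, low dose first, were −0.43 and −0.59 in HuccT1 cells against −0.17 and −0.41 in KKU-100 for 202133_at. They were −0.53 and −0.57, and −0.23 and −0.69, for 202132_at. Probe set 202134_s_at was at −0.65 and −0.48 in HuccT1 cells, and at −1.03 and −1.03 in KKU-100. Of 2418 genes with at least 3 probe sets past the level filter in both lines, 4.01% were below solvent in every one of these values.

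YAP1 was below solvent in 10 of 12 values and past the cutoff in none. Of all probe sets past the level filter, 52.0% and 51.4% were below solvent in HuccT1, low dose first, and 46.2% and 47.8% in KKU-100. In HuccT1 each YAP1 probe set was highest with solvent and lowest at the high dose, with log2 fold changes of −0.10 and −0.49 (224894_at), −0.26 and −0.44 (224895_at) and −0.38 and −0.47 (213342_at). In KKU-100 its probe sets disagreed, at 0.11 and 0.00, −0.07 and −0.26, and −0.47 and −0.52 in the same order. The median over the YAP1 probe sets was −0.26 and −0.47 for HuccT1 against −0.07 and −0.26 for KKU-100. Over the WWTR1 probe sets it was −0.53 and −0.57 for HuccT1 against −0.23 and −0.69 for KKU-100.

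The TEAD genes had no common direction. TEAD1 stayed between −0.17 and 0.03 in HuccT1, and in KKU-100 its brightest probe set was at 0.13 and 0.13 while the dimmer 214600_at was at −0.60 and −0.34 and 1553322_s_at at −0.51 and −0.77. TEAD2 was higher at the low dose in KKU-100 with each of its probe sets, from 0.23 to 0.62, with 226408_at at 0.62. At the high dose it lay between −0.60 and 0.32 there. In HuccT1, where its signal was near the array median or below, TEAD2 lay between −0.49 and 0.56. TEAD3 was at 0.65 and 0.03 in HuccT1 cells, and at 0.45 and 0.28 in KKU-100. TEAD4 stayed within 1.5-fold, between −0.36 and 0.24.

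Among the VGLL genes, VGLL3 227399_at was highest at the high dose in KKU-100, with log2 fold changes of 0.45 and 0.70, whereas HuccT1 had 0.14 and −0.19. VGLL1 was at 0.45 and 0.18 (205487_s_at) and 0.51 and −0.38 (215729_s_at) in HuccT1, where these probe sets parted at the high dose. VGLL4 was at −0.46 and −0.26 and at −0.38 and −0.17 in KKU-100, and between −0.11 and 0.18 in HuccT1.

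**Figure D3:**
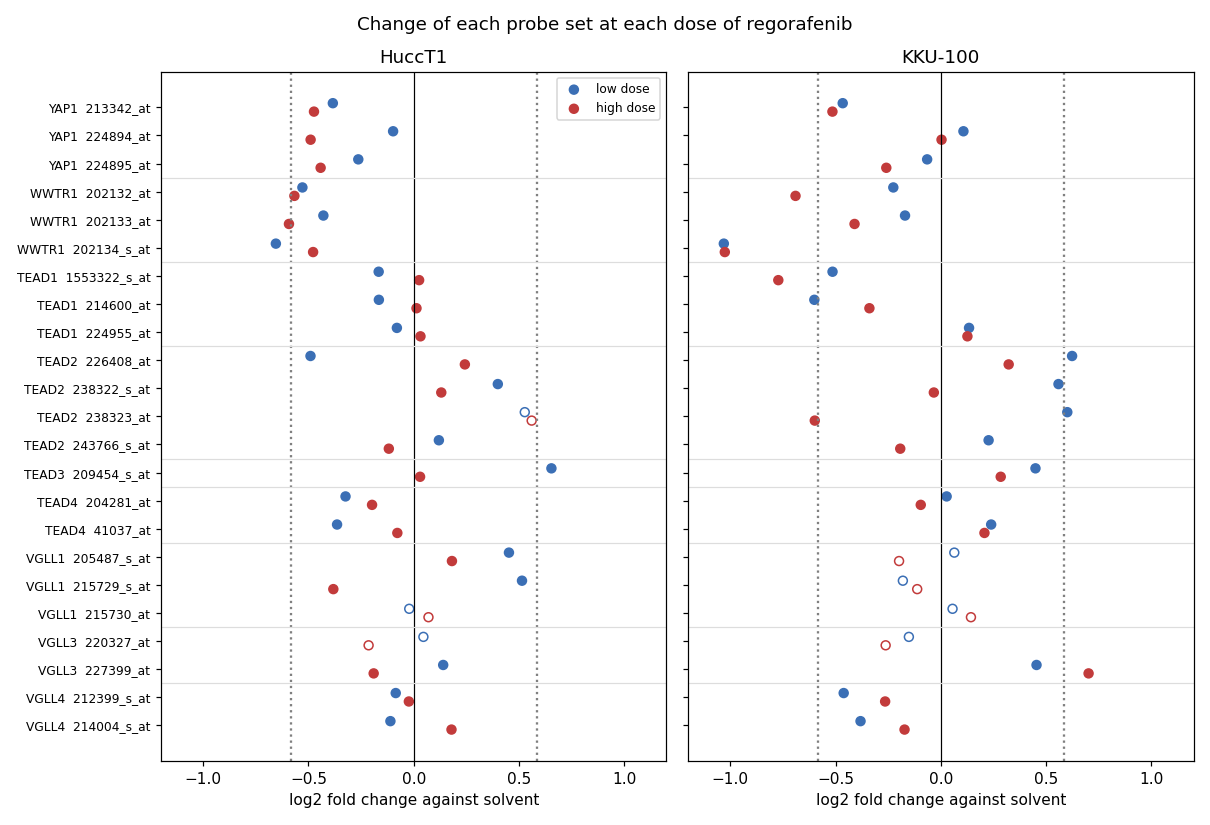
Log2 fold change against the solvent array of the same line for each member probe set, low dose in blue and high dose in red, 1 array per condition; open points are below the level filter of the line and dotted lines mark 1.5-fold. The WWTR1 points lie left of 0 throughout, from −0.17 to −1.03, and the YAP1 points lie between −0.52 and 0.11.

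Among HuccT1 arrays, 1 of 20 member probe sets past the level filter was higher (TEAD3) and 1 lower (WWTR1) past 1.5-fold at the low dose, where 3.05% and 4.5% of all 27307 probe sets were. For the high dose the counts were 0 higher and 1 lower (WWTR1), against 7.14% and 7.58% of all. In KKU-100, 2 of 19 were higher (both TEAD2) and 2 lower (WWTR1 and TEAD1) at the low dose, against 8.41% and 9.05%. For the high dose 1 was higher (VGLL3) and 4 lower (2 of WWTR1, 1 of TEAD1 and 1 of TEAD2), against 8.28% and 7.4%. The counts of HuccT1 at both doses and of KKU-100 at low dose are near these shares or below them. The lower TEAD1 and TEAD2 calls at the high dose and the TEAD2 call of 238323_at rest on signals of 21.3 to 49.0 at the treated or solvent array. The VGLL3 call likewise rests on a low solvent signal, 36.8, at percentile 55.0 of the KKU-100 solvent array.

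Effects shared by the lines were tested in the same limma model, where line is a block. It called 0 of 20 member probe sets at either dose after adjustment, as it did 0.0% of all 27307. A t-test paired over the lines, with 1 residual degree of freedom, called 0 members. Of all 27307 it called 1 higher and 0 lower at low dose, and 2 higher and 3 lower at high dose, so it cannot tell whether members changed. With p unadjusted and under 0.05, limma had 2 higher and 3 lower of 20 at low dose (4.72% and 6.0% of all probe sets). For high dose limma had 0 higher and 5 lower (8.28% and 6.66% of all). The 5 at the high dose were the 3 probe sets of WWTR1, at −0.50 (standard error 0.12), −0.63 and −0.75, and the YAP1 probe sets 213342_at at −0.49 and 224895_at at −0.35, with limma adjusted p-values from 0.193 to 0.305. The brightest YAP1 probe set, 224894_at, was at −0.24 (standard error 0.14, limma adjusted p = 0.493). At the low dose they were WWTR1 202134_s_at at −0.84 and 202133_at at −0.30, YAP1 213342_at at −0.43, TEAD3 at 0.55 and TEAD2 238322_s_at at 0.48, with limma adjusted p-values of at least 0.405. Without the HuccT1 solvent array, limma called 1 member at the low dose, WWTR1 202134_s_at at −1.07 (adjusted p = 0.0332), where the solvent level rests on KKU-100 alone and 3.58% of all probe sets were called lower and 2.44% higher, so that 1 of 20 is near the background. A difference between the lines in the response to regorafenib was called by limma for 0 of 20, with both doses of a line taken as 1 treated group. This fit called 0.0% of all 27307 higher and 0.0% lower, so it cannot tell whether members differed in response. At an unadjusted p under 0.05 it had 0 of 20, where 4.85% and 3.35% of all were. The smallest member adjusted p in this limma fit was 0.652.

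The pathway lists were counted with 1 probe set per gene. On that count, 3.68% of all genes past the level filter were higher and 3.32% lower past 1.5-fold in low-dose HuccT1, 8.23% and 6.44% in high-dose HuccT1, 9.75% and 7.32% in low-dose KKU-100, and 9.44% and 4.86% in high-dose KKU-100. Around the factors, the Hippo kinases and their adaptors included several genes with lower RNA at the low dose in KKU-100. Of the 7 kinase core genes (STK3, STK4, SAV1, LATS1, LATS2, MOB1A and MOB1B), 4 were lower past 1.5-fold there, 1 for the high dose and 0 higher, while HuccT1 had 1 higher at high dose and 0 lower. The list median, low dose first, was −0.19 and 0.10 for HuccT1 and −0.62 and −0.36 for KKU-100, where the median of all genes was between 0.02 and 0.06. SAV1, the adaptor that holds the kinases together, had −0.90 and −0.64 for KKU-100 against 0.35 and 0.19 for HuccT1. Of 19 upstream regulators, 16 passed the level filter in HuccT1, of which the low dose had 2 higher and 0 lower, and the high dose 2 higher and 1 lower. In KKU-100 15 passed, where the low dose had 3 higher and 2 lower and the high dose 4 higher and 2 lower. AJUBA, a LIM protein that binds LATS kinases, had 0.68 and 0.87 for HuccT1 against 0.75 and 0.79 for KKU-100. FRMD6, a FERM domain protein upstream of the kinases, had −0.58 and −0.86 for HuccT1 against −1.18 and −0.85 for KKU-100. WWC1 (KIBRA) was at 1.03 and 0.61 in KKU-100 and LIMD1, a relative of AJUBA, at 0.79 and 0.71, against 0.24 and 0.08 and −0.07 and 0.28 in HuccT1.

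Of 11 genes that hold YAP1 and TAZ in the cytoplasm or mark them for degradation, 2 were lower at each dose in HuccT1, SFN (14-3-3 sigma) at −0.61 and −1.31 and CSNK1E, casein kinase 1 epsilon, at −0.61 and −0.93. In KKU-100 0 passed at the low dose and SFN was lower at the high dose, at −0.68. Of 3 tyrosine kinases that act on YAP1, ABL1 had 0.94 and 0.73 for KKU-100 against 0.06 and 0.51 for HuccT1, while YES1 and SRC stayed within 1.5-fold. Of the YAP/TAZ targets past the level filter, HuccT1 had 3 of 20 lower and 2 higher at low dose, then 7 lower and 1 higher at high dose. KKU-100 had 4 of 21 lower and 3 higher at low dose, then 3 lower and 1 higher. F3, tissue factor, read 9076, 5882 and 2728 in HuccT1 against 781, 1042 and 634 in KKU-100. CCN2 (CTGF) read 278, 115 and 77.8 in HuccT1 against 6777, 148 and 192 in KKU-100. FJX1, a secreted protein of the Golgi, had −0.62 and −1.59 in HuccT1 but 1.24 and 0.55 in KKU-100, and GADD45A, a gene of the stress response, 0.85 and 2.57 against −0.78 and 0.98.

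**Figure D4:**
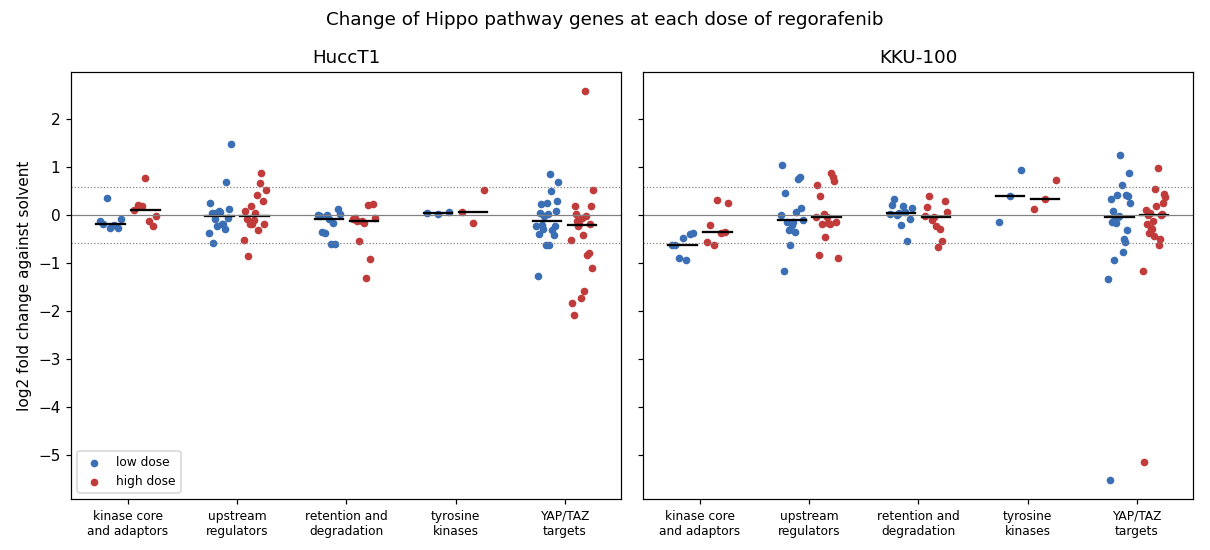
Log2 fold changes of genes past the level filter in 5 pathway lists, each dose against solvent, each by its brightest probe set, low dose in blue and high dose in red, 1 array per condition; bars are list medians and dotted lines mark 1.5-fold. The bars of the kinase core stand at −0.62 and −0.36 for KKU-100, against −0.19 and 0.10 for HuccT1.

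By the pattern over the 6 arrays, the gene most like YAP1 (224894_at) among 12833 genes past the level filter was ANKRD1, with a Pearson r of 0.999. ANKRD1, a muscle ankyrin repeat protein, is also in the list of YAP/TAZ targets counted above. SMAD3 followed with 0.998 and LMNB2 with 0.997. The genes most like WWTR1 (202133_at) were AOX1 with 0.999, ZMPSTE24 with 0.998 and TMEM248 with 0.997. In all, 483 genes had an r over 0.95 with YAP1 and 412 with WWTR1. The 6 arrays fall into 2 lines that stand apart, and each r is a description only.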

How the data were processed

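RNA for 6 conditions was hybridized to Affymetrix expression arrays with a single array for every condition. The authors deposited a linear intensity for each probe set, calculated by MAS5 according to the submitters (version not given in the sources used here). GeneSpring is the tool in the study's methods for log2 normalization. Log2 was taken with no rescaling, because array quantiles were alike. The 62 control probe sets were left out. Symbols came from the array's annotation of the platform, updated by gene ID through RefSeq: 41091 probe sets had 1 symbol, 1801 several and 11721 none. A member is described by all its probe sets, and other listed genes by their brightest probe set on average.

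Each dose was compared with solvent at 1.5-fold. Limma 3.58.1 (R 4.3.3) was fitted above the 50th percentile of mean log2 signal, with line and treatment as terms (eBayes with a trend, 2 residual and 3.41 prior degrees of freedom) and Benjamini-Hochberg adjustment at 0.05 over all of them. A second fit held the term for line by treated. The script was tested on simulated data. The sources do not say whether arrays of a line came from separate cultures, and the number of arrays limits the precision. Python 3.11.15, numpy 2.4.6 and pandas 2.3.3 did the rest.

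Named genes were all members, up to 4 genes of each pathway list of largest high-dose change among genes whose 2 doses both passed 1.5-fold in 1 direction in a line, and the 3 genes most correlated with YAP1 and with WWTR1. Others (LATS1 and LATS2 with their list, SOX9 and the markers) are named from the lists. The members and lists were chosen with earlier results of these data known. Alternatives were quantile normalization, median centring, a floor at the 20th percentile, no filter or one at the 60th percentile, probe sets of single specificity only, a 2-fold cutoff, 1 probe set per gene, other variance priors, omission of single arrays and a paired t-test (the study's methods name a Student's t-test, and the pairing was chosen here). Chosen after seeing the data was a restriction to probe sets past the filter in both lines.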

Additional observations from a re-analysis of the deposited data

Results flagged for a closer look

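TEAD4 stood out because the median over its probe sets was below solvent at both doses in HuccT1, at −0.344 and −0.138 on the log2 scale, and above it at both doses in KKU-100, at 0.133 and 0.0557. At the high dose in KKU-100 the probe sets parted, with the brighter 204281_at at −0.10 and 41037_at at 0.21. All 4 medians are within 1.5-fold, and the same solvent array serves both doses. Limma did not call the difference between the lines in the response for either probe set (adjusted p = 0.86 for 204281_at and 0.742 for 41037_at). That fit called 0.0% of all 27307 probe sets higher and 0.0% lower, so the missing call cannot tell whether TEAD4 differed.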

How the results depend on the processing

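With quantile normalization, 0 members were lower for high-dose HuccT1 in place of 1, which was WWTR1 202133_at at −0.59, close to the 1.5-fold cutoff. A 2-fold cutoff left 0 members past it for HuccT1 under both doses, and for KKU-100 left 0 higher under both and 1 lower under each. Without _s_at probe sets, which can match several transcripts, low-dose HuccT1 had 0 higher and 0 lower, low-dose KKU-100 had 1 lower and high-dose KKU-100 had 2 lower. With 1 probe set per gene, low-dose HuccT1 had 0 lower, low-dose KKU-100 had 1 higher and 0 lower, and high-dose KKU-100 had 0 lower. With a filter at the 60th percentile, low-dose KKU-100 had 1 higher, and high-dose KKU-100 had 0 higher and 2 lower. These alternatives hold fewer probe sets or a stricter cutoff by construction, apart from quantile normalization, where the cause was not tested.

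Between the lines and without _s_at probe sets, limma called 3 of 11 members higher and 6 lower, against 26.2% and 22.8% of all. With 1 probe set per gene it called 3 of 9 higher and 4 lower, against 27.9% and 26.3% of all. With 1 array left out at a time, 4 to 6 of 20 were higher and 8 lower. Of all probe sets, 16.5% to 28.1% were then higher and 17.1% to 25.9% lower. The paired t-test called 1 of 20 higher and 4 lower after Benjamini-Hochberg adjustment, against 8.62% and 8.55% of all probe sets. The 4 include both VGLL1 probe sets, which had to differ. The difference in response between lines could not be fitted without a solvent array. Counted over combinations of member probe set and alternative, 268 differences between lines stayed on their side of the threshold, 25 lost it, 3 gained it and 0 reversed. These counts hold the omission of each array of a treatment separately, though both omissions give the same estimate. Of the fold changes of member genes, 165 moved by less than the spread of the fit, 13 by more and 0 reversed a value past 1.5-fold. With the probe set of highest signal, YAP1 had −0.10 for low-dose HuccT1 and 0.11 and 0.00 for the doses of KKU-100. The labels carry no replicate numbers, so pairing was by line or treatment only.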
